A study of Mus musculus with 8 samples.

Results

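The astrocyte genes described here are 10 genes commonly used to mark astrocytes, taken by symbol: Gfap, Aqp4, Slc1a2, Slc1a3, Gja1, Gjb6, Aldoc, Slc7a10, Sox9 and Agt. They are 10 of the 38924 genes in the deposited tables, and all 10 were found and passed the filter on low counts. The rule that names them uses no measured value.

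The series was about mRNAs on the ribosomes of motor neurons whose sciatic nerve had been crushed on 1 side. The mice carried RiboTag, an Rpl22 allele that gives a large-subunit ribosomal protein an HA epitope once Cre recombinase has acted. Chat-Cre acts in cholinergic cells, among them the motor neurons of the cord, so an HA precipitate from whole cord should hold mRNA of those cells plus whatever sticks without the tag. Mice without Cre measure the second part, to which mRNA of astrocytes, which are not cholinergic, would belong. All 8 mice were wild type for Gars (Gars+/+), were of strain background B6.CgxB6.129 and were labelled Rpl22 +/-. There were 4 groups of 2 animals. The Cre crushed mice (animals 35 and 52) were labelled Chat +/- and were 18 and 9 weeks old. The no-Cre crushed mice (51 and 58) were labelled Chat +/+ and were 9 weeks old. The Cre uncrushed mice (10 and 3) and the no-Cre uncrushed mice (4 and 6) were 8 weeks old. Crushed mice had isoflurane, carprofen and bupivacaine with the surgery. The sources used here give no time from crush to collection, and crush cannot be told apart from age, nor from what is meant by a number printed in each uncrushed title and in none of the crushed ones.

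The genotype entries of Cre uncrushed animal 3 (Chat +/+) and no-Cre uncrushed animal 4 (Chat +/-) go against their titles, and groups were taken from the titles. Chat, which makes the transmitter acetylcholine, was measured at 78.2 to 126 CPM (counts scaled for depth) in the 4 Cre libraries, animal 3 included. It stood at 3.83 to 5.16 CPM in the 4 no-Cre libraries, animal 4 included. The main counts are given with and without these libraries. Library totals ran from 4826979 to 11522721 counts, so that 3 counts in a library corresponded to 0.19 to 1.17 CPM. Mitochondrial ribosomal RNA took 1.61 to 5.53% of counts in the Cre libraries and 11.5 to 48.2% in the no-Cre libraries. CPM here are counts scaled to library totals by TMM, which sets libraries to a common level over most genes, and all values after ± on CPM are standard deviations over 2 animals. The labels do not say that the animals were prepared separately, so p-values measure the spread between these libraries.

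Astrocytes take up glutamate that neurons release, pass ions and small molecules to one another through gap junctions, and wrap blood vessels with endfeet that carry water channels. They supply neurons with metabolites of glucose and with amino acids, and they respond to injury of the nervous system, including the cutting or crushing of a distant motor axon, by enlarging their processes and making more intermediate filament. The 10 genes cover these roles: a filament protein (Gfap), a water channel (Aqp4), glutamate transporters (Slc1a2, Slc1a3), gap junction proteins (Gja1, Gjb6), a glycolytic enzyme (Aldoc), an amino acid transporter (Slc7a10), a transcription factor (Sox9) and a secreted peptide precursor (Agt).

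The sequence just upstream of the transcription starts of the 10 genes was searched for 5 motifs, on both strands. The search covered the 250 bases before each start in RefSeq (GRCm38.p6). The comparison of Cre with no-Cre measures what a precipitate holds, not transcription. The table held 9 starts of 8 of the genes, and 32851 starts in all; Aqp4 and Sox9 are not in it. The 3 windows printed are those of the genes at the extremes of the Cre comparison, Agt and Aldoc, and of Slc1a3, whose pattern lay nearest to the mean of the 10. They run 5′ to 3′ on the gene's strand and end at the base before the start; capitals mark motif matches. Agt lies at chr8:124569707-124569956 (minus strand), Slc1a3 at chr15:8710808-8711057 (minus strand) and the first start of Aldoc at chr11:78322823-78323072 (plus strand).
Agt: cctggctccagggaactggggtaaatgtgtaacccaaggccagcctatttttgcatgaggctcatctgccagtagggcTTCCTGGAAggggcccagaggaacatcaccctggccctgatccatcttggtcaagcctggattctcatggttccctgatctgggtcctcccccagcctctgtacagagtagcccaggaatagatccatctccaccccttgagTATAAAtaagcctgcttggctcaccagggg
Slc1a3: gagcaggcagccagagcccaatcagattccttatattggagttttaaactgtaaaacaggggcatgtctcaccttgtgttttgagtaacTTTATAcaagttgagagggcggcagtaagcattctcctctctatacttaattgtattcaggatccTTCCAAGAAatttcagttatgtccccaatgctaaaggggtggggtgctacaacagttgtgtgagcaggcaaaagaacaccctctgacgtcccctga
Aldoc: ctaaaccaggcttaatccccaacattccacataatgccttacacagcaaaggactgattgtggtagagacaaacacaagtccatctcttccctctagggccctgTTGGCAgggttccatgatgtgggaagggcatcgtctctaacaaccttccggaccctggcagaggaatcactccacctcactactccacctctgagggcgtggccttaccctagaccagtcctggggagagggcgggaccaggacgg

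No motif was common to the set. The STAT motif TTCNNNGAA, bound by factors that act in reactive astrocytes, was in 3 of the 9 windows (Agt, Slc1a3 and the second start of Aldoc) and in 7.0% of all windows. The TATA box TATAAA was in 2 windows, Agt at 30 to 25 bases before the start and Slc1a3 on the other strand, against 12.4% of all windows. The NFI half-site TTGGCA was in the first Aldoc window alone (12.3% of all windows), and the AP-1 motif TGANTCA in the Gja1 window alone (6.7%). The SOX motif, ACAATG or ACAAAG, was in 0 of the 9 and in 25.2% of all windows. These are matches of letters, and the data do not bear on what binds there.

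In uncrushed mice all 10 astrocyte genes were lower in the Cre precipitates than in the no-Cre precipitates, from 14.5-fold lower for Agt to 2.05-fold lower for Aldoc, where 21.9% of all genes tested were lower. In crushed mice the 10 were again below the no-Cre libraries without overlap (40.3% of all genes), and 9 passed the test (21.3% of all genes), from 10.2-fold lower for Agt to 3.30-fold lower for Slc7a10. After crush, 7 genes stood higher in both Cre libraries than in both uncrushed Cre libraries (26.1% of all genes), by 1.72- to 2.44-fold, but none of the 10 passed the test at an adjusted p of 0.05 (0.0723% of all genes passed). Without Cre, 7 genes, not all of them the same ones, also stood higher after crush without overlap (19.5% of all genes). There 1 gene stood lower (19.8%), and none passed. The level of each gene in each library comes first.

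Gfap, the main intermediate filament of astrocytes, was measured at 26.4 and 18.7 CPM with Cre and at 182 and 188 CPM without in uncrushed mice. After crush it was at 28.4 and 48.9 CPM with Cre and at 196 and 208 CPM without. All Cre libraries lay far below all no-Cre libraries, and the libraries of crushed mice lay above those of uncrushed mice with and without Cre. The log2 fold change of Cre over no-Cre was -3.04 ± 0.30 (approximate SE, adjusted p = 6.78e-05) in uncrushed and -2.39 ± 0.29 (adjusted p = 0.000192) in crushed mice, by edgeR's quasi-likelihood test with Benjamini-Hochberg adjustment over all genes, as in all such values here. Gm26668, a noncoding RNA gene annotated on the opposite strand at the same place (GENCODE M21), was at 0.39 to 6.24 CPM, and it is not stated whether counting used strand.

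Aqp4, the water channel of the endfeet, was at 17.2 and 17.2 CPM in Cre uncrushed and at 34.1 and 44.5 CPM in Cre crushed libraries. Without Cre it was at 95.9 and 194 CPM in uncrushed and at 246 and 229 CPM in crushed mice. The 4 groups did not overlap, and the no-Cre uncrushed libraries differed most from each other. The difference of Cre from no-Cre was -3.08 ± 0.33 on the log2 scale in uncrushed mice (adjusted p = 9.37e-05) and -2.60 ± 0.32 in crushed mice (adjusted p = 0.000194). Without no-Cre uncrushed animal 6 the first value was -2.41 and still passed.

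Slc1a2, the glutamate transporter that carries most uptake in the adult nervous system, was at 151 and 147 CPM in Cre uncrushed and at 262 and 375 CPM in Cre crushed libraries. The no-Cre libraries held 1052 and 1893 CPM in uncrushed and 2509 and 1845 CPM in crushed mice. Cre groups did not overlap each other, while the no-Cre groups did. Its log2 fold change of Cre over no-Cre was -3.30 ± 0.36 (adjusted p = 0.000101) and, after crush, -2.77 ± 0.35 (adjusted p = 0.000221). Slc1a3, the other glial glutamate transporter, was at 4.03 and 3.12 CPM in Cre uncrushed, 5.38 and 7.20 CPM in Cre crushed, 22.2 and 27.8 CPM in no-Cre uncrushed and 39.5 and 35.0 CPM in no-Cre crushed libraries. The order of the 4 groups was that of Aqp4, with no overlap. For Slc1a3 the difference was -2.82 ± 0.32 (adjusted p = 0.000131) and -2.57 ± 0.30 (adjusted p = 0.000167) on the log2 scale.

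Slc1a2 exceeded Slc1a3 by 37.4 to 52.0 times in CPM in the Cre libraries and by 47.3 to 68.2 times in the no-Cre libraries, so that the ratio of the transporters overlapped between them. This is a ratio of counts, not corrected for gene length.

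Gja1, the connexin that makes up most astrocyte gap junctions, was at 5.33 and 1.95 CPM in Cre uncrushed and at 7.41 and 9.97 CPM in Cre crushed libraries. The no-Cre libraries held 37.8 and 54.8 CPM in uncrushed and 60.4 and 80.1 CPM in crushed mice. Its lowest library, Cre uncrushed animal 3, rested on 20 counts. The log2 fold change was -3.71 ± 0.43 (adjusted p = 0.000131) in uncrushed and -3.02 ± 0.39 (adjusted p = 0.000243) in crushed mice. The uncrushed value was -4.53 without Cre uncrushed animal 10 and -3.09 without animal 3, and passed either way.

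Gjb6, the second astrocyte connexin, was at 3.77 and 5.65 CPM in Cre uncrushed and 5.51 and 5.78 CPM in Cre crushed libraries, and at 17.5 and 29.6 CPM and 36.9 and 34.5 CPM in the no-Cre libraries of uncrushed and crushed mice. The Cre groups overlapped. Cre over no-Cre was -2.32 ± 0.35 (adjusted p = 0.000526) in uncrushed and -2.66 ± 0.33 (adjusted p = 0.000212) in crushed mice. Counts of Gja1 over Gjb6 were 0.345 to 1.73 in the Cre libraries and 1.64 to 2.32 in the no-Cre libraries, which overlapped between Cre crushed animal 52 and no-Cre crushed animal 51.

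Aldoc, the aldolase form commonly used to mark astrocytes, was at 231 and 229 CPM in Cre uncrushed and at 234 and 226 CPM in Cre crushed libraries, which were nearly the same in all 4. The no-Cre libraries held 457 and 487 CPM in uncrushed and 292 and 355 CPM in crushed mice. Cre over no-Cre was -1.04 ± 0.22 (adjusted p = 0.00397) in uncrushed mice, the smallest difference of the 10. In crushed mice it was -0.49 ± 0.22 and did not pass (adjusted p = 0.0924). With library size alone as the scale the uncrushed difference was -0.36 (adjusted p = 0.406), and without both libraries of contradictory genotype it was -1.03 (adjusted p = 0.072); the crushed difference passed with mitochondrial ribosomal RNA left out of the totals (-0.71, adjusted p = 0.0266) and by DESeq2 (-0.50, adjusted p = 0.043).

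Slc7a10, a transporter of small neutral amino acids such as serine and glycine, had the lowest count in a library of the 10 genes, with 9 and 22 counts in the Cre uncrushed libraries. These were 1.17 and 2.14 CPM, beside 3.54 and 4.35 CPM in Cre crushed, 25.7 and 10.1 CPM in no-Cre uncrushed and 12.1 and 14.0 CPM in no-Cre crushed libraries. The no-Cre uncrushed libraries lay on both sides of the no-Cre crushed ones. Cre over no-Cre was -3.38 ± 0.52 (adjusted p = 0.000616) in uncrushed and -1.72 ± 0.46 (adjusted p = 0.0119) in crushed mice on the log2 scale. The uncrushed value was -2.54 without no-Cre uncrushed animal 4 and still passed, while the crushed value did not pass without Cre crushed animal 35 (-1.54, adjusted p = 0.11) or without no-Cre crushed animal 58 (-1.56, adjusted p = 0.057). Lrp3, a protein-coding gene that overlaps it on the opposite strand, was at 7.80 to 32.1 CPM and did not differ by the test in uncrushed (-0.69, adjusted p = 0.274) or crushed mice (0.26, adjusted p = 0.677).

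Sox9, a transcription factor needed for glial fate and kept on in adult astrocytes, was at 7.42 and 3.41 CPM in Cre uncrushed, 6.46 and 7.52 CPM in Cre crushed, 22.6 and 20.0 CPM in no-Cre uncrushed and 27.5 and 28.8 CPM in no-Cre crushed libraries. Cre uncrushed animal 10 lay within the range of the Cre crushed libraries. Cre over no-Cre was -1.99 ± 0.38 (adjusted p = 0.00191) and -2.01 ± 0.35 (adjusted p = 0.00133) in uncrushed and crushed mice. Without Cre uncrushed animal 10 the first was -2.60, and without both libraries of contradictory genotype it was -1.39; both passed.

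Agt, angiotensinogen, the precursor from which the angiotensins are cut, was at 1.82 and 1.46 CPM in Cre uncrushed and 2.28 and 3.40 CPM in Cre crushed libraries, which held 14 to 43 counts each. Without Cre it was at 21.4 and 25.9 CPM in uncrushed and 29.3 and 28.3 CPM in crushed mice. It had the widest gap between Cre and no-Cre of the 10 genes. The log2 fold change was -3.85 ± 0.37 (adjusted p = 5.69e-05) in uncrushed and -3.34 ± 0.33 (adjusted p = 0.0001) in crushed mice.

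**Figure D1:**
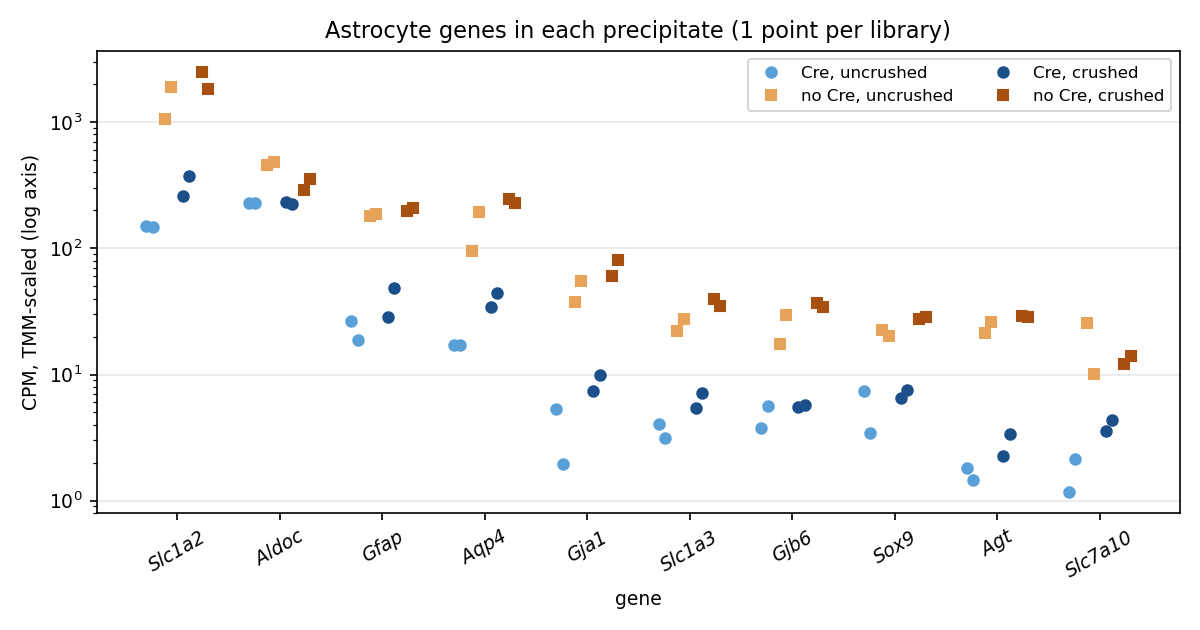
Level of each astrocyte gene in each of the 8 libraries (1 point per library, TMM-scaled CPM, log axis); blue circles are Cre and orange or brown squares no-Cre, dark for crushed mice. For every gene the 4 Cre points lie below the 4 no-Cre points, with Aldoc closest, at 226 to 234 CPM against 292 to 487 CPM.

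Counted together, 10 of 10 genes were called lower in the Cre libraries of uncrushed mice, where 21.9% of the 15208 genes tested were called lower. In crushed mice 9 of 10 were called lower, against 21.3% of genes. The 10 genes stood lower without overlap in both comparisons, as did 35% of genes in uncrushed and 40.3% in crushed mice. Their median log2 fold change was -3.06 in uncrushed and -2.58 in crushed mice, beside -0.03 and -0.08 over all genes. These comparisons use different animals. With mitochondrial ribosomal RNA left out of the totals, 10 genes passed in each. Without both libraries of contradictory genotype the uncrushed values ran from -1.03 (Aldoc, which did not pass) to -3.78 (Agt), with Gfap at -2.78, Slc1a2 at -3.61 and Slc1a3 at -2.74, and 9 passed. In bulk precipitates, a smaller part of untagged mRNA, fewer cells of a type and less RNA per cell cannot be told apart.

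**Figure D2:**
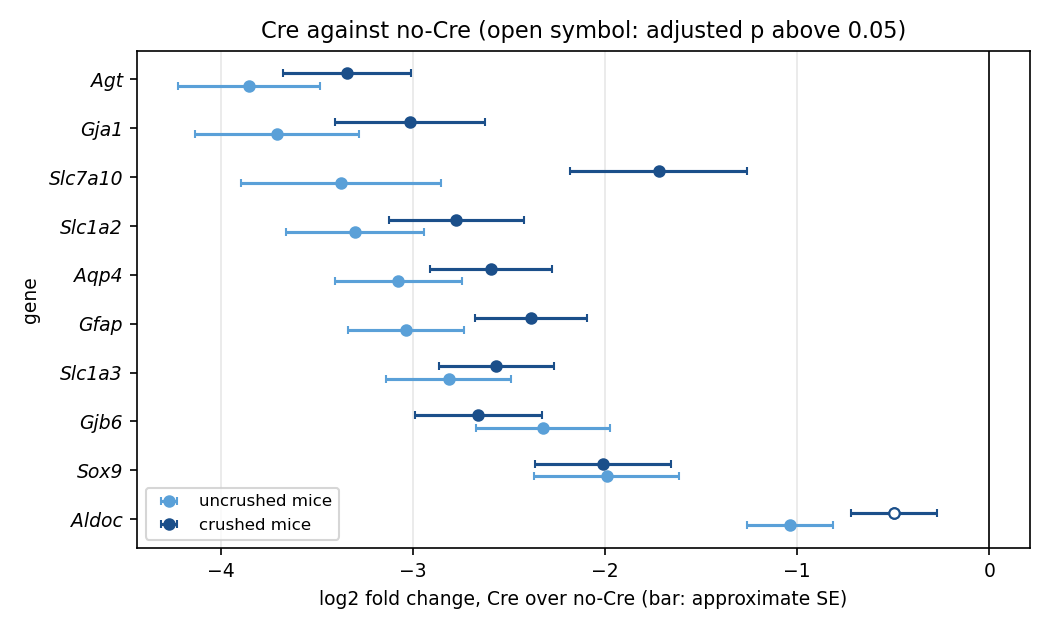
Log2 fold change of Cre over no-Cre for each astrocyte gene, light blue in uncrushed and dark blue in crushed mice, with approximate standard errors; an open symbol did not pass. All values are below 0, from -3.85 (Agt, uncrushed) to -0.49 (Aldoc, crushed), the one open symbol.

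The genes did not make up the same share of the set in both kinds of precipitate. Aldoc took 30.9 to 53.3% of the summed CPM of the 10 genes in the Cre libraries and 8.48 to 23.6% in the no-Cre libraries. Slc1a2 took 33.6 to 51.2% with Cre and 54.4 to 72.7% without. Agt took 0.340 to 0.465% against 0.850 to 1.11%, and Gja1 0.453 to 1.36% against 1.75 to 2.80%; these 4 genes did not overlap between the 4 Cre and the 4 no-Cre libraries. With Aldoc set aside, the shares of Gja1 overlapped (0.969 to 2.45% with Cre and 1.91 to 3.20% without), as did those of Slc1a2 (69.2 to 79.5% over all libraries), while those of Agt did not (0.642 to 0.835% and 0.929 to 1.45%). Such shares do not depend on the scaling of the libraries, and the shares of one library sum to a fixed total.

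**Figure D3:**
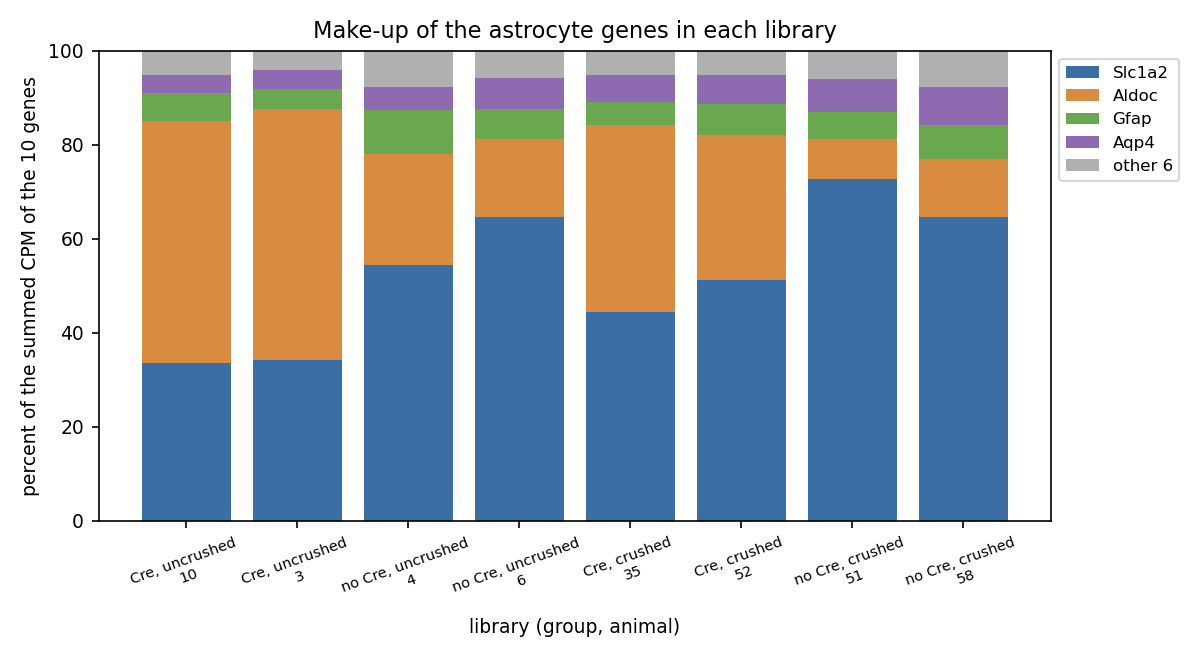
Share of each astrocyte gene in the summed CPM of the 10 genes, 1 bar per library, with the 6 lesser genes joined. Aldoc (orange) takes 30.9 to 53.3% in the Cre libraries and 8.48 to 23.6% in the no-Cre libraries, and Slc1a2 (blue) is the largest share in every no-Cre library.

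Compared per length, in TPM (a deposited measure corrected for gene length), Aldoc and Slc1a2 were the most abundant of the 10. In Cre uncrushed libraries Aldoc was at 229 ± 36.2 TPM and Slc1a2 at 24.2 ± 5.38 TPM, followed by Gfap at 14.5 ± 1.12 TPM and Aqp4 at 5.67 ± 0.955 TPM (SD over 2 animals). These 4 did not overlap, and Slc7a10, next at 5.14 ± 3.72 TPM, overlapped Aqp4. The other 5 ranged from 1.2 to 5.45 TPM, with Agt lowest by its mean. In Cre crushed libraries the order of the first 4 was the same, again without overlap, with Aldoc at 319.8 ± 1.39 TPM and Slc1a2 at 77.4 ± 33.7 TPM. In no-Cre uncrushed libraries Aldoc (195 ± 75.8 TPM) and Slc1a2 (128 ± 31.6 TPM) overlapped. In no-Cre crushed libraries Slc1a2 (435 ± 312 TPM) had the higher mean and again overlapped Aldoc (324 ± 109 TPM). By its mean Gfap came after these and Aqp4 after Gfap in all groups, and Sox9 had the lowest mean without Cre, at 3.89 ± 0.665 and 13.3 ± 6.00 TPM. By TPM, unlike CPM, Aldoc overlapped between Cre and no-Cre libraries in uncrushed and in crushed mice. Its mean TPM in uncrushed mice was higher with Cre. The other genes had lower mean TPM with Cre in both.

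A few relatives of the 10 genes are set beside them here. They were chosen after their values were seen, and the full lists follow. Over all genes tested, 20.6% were called higher with Cre in uncrushed and 21.6% in crushed mice. Slc1a1, the glutamate transporter of neurons, was higher with Cre in uncrushed (1.54 ± 0.24, adjusted p = 0.000722) and crushed mice (0.82 ± 0.23, adjusted p = 0.0163). Aldoa, the aldolase of most other cells, was higher by 2.13 ± 0.28 (adjusted p = 0.000237) and 2.44 ± 0.28 (adjusted p = 0.000155). Counts of Aldoc over Aldoa were 0.256 to 0.429 in the Cre libraries and 1.92 to 4.16 in the no-Cre libraries. Gjd2, the main connexin of neurons, was at 8.59 and 7.01 CPM in Cre uncrushed and 4.29 and 5.88 CPM in no-Cre uncrushed libraries and did not pass there (0.60 ± 0.39, adjusted p = 0.24). In crushed mice it was higher, by 2.12 ± 0.38 (adjusted p = 0.00147). The neurofilament genes Nefl and Nefm were higher with Cre in uncrushed mice by 2.69 ± 0.36 and 2.76 ± 0.42, while Vim, a filament that astrocytes and vessel cells share, was lower (-3.15 ± 0.39, adjusted p = 0.000181). Without both libraries of contradictory genotype the uncrushed values were 1.35 for Slc1a1, 1.74 for Aldoa, 2.75 for Nefl, 3.39 for Nefm and -2.73 for Vim, and all 5 passed.

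**Figure D4:**
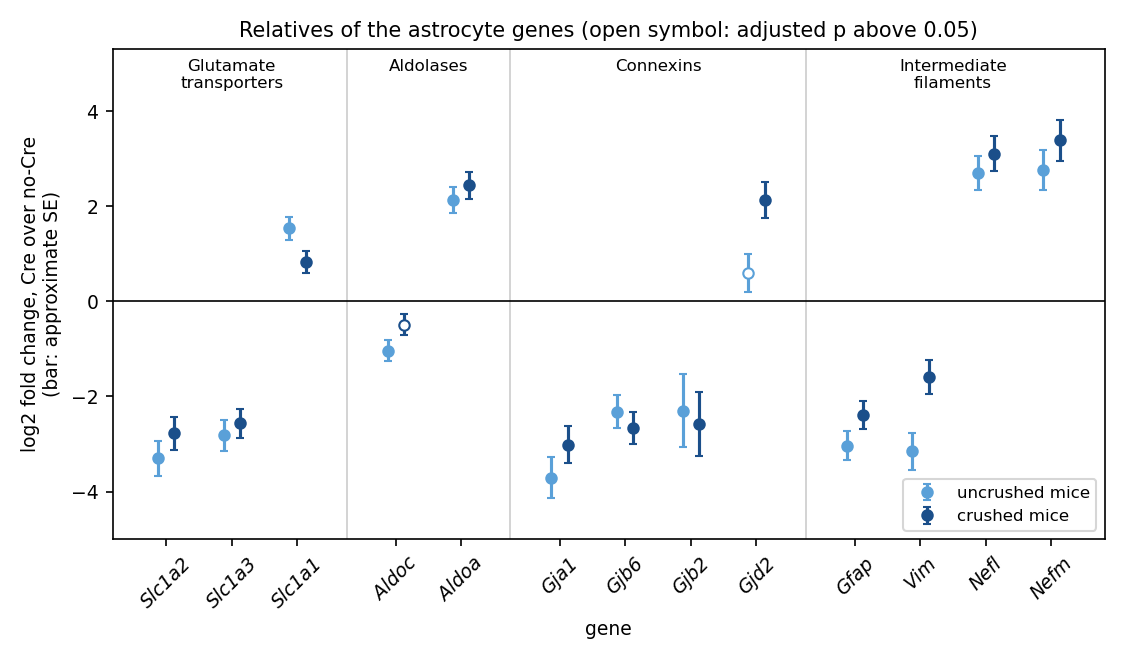
Log2 fold change of Cre over no-Cre for astrocyte genes and their relatives in 4 families, light blue in uncrushed and dark blue in crushed mice, with approximate standard errors; open symbols did not pass. The relatives shown were chosen after their values were seen: Slc1a1, Aldoa, Gjd2, Nefl and Nefm lie above 0, with Gjd2 open in uncrushed mice, and Gjb2, Vim and the astrocyte genes lie below it.

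A wider list of 22 astrocyte markers was lower with the 10. In uncrushed mice 20 of 22 were lower and 0 higher (median -2.95), and in crushed mice 20 were lower and 0 higher (median -2.33). Without both libraries of contradictory genotype 19 were lower in uncrushed mice. Among the most abundant were Ndrg2 (-1.94 ± 0.30 in uncrushed mice), the sodium pump subunit Atp1b2 (-2.95 ± 0.34) and S100b. S100b, a calcium-binding protein often used as a glial marker, did not pass in either direction and stood at 0.56 ± 0.36 (adjusted p = 0.221) in uncrushed and 0.89 ± 0.36 (adjusted p = 0.0641) in crushed mice. Its levels were 491 and 410 CPM in Cre uncrushed and 360 and 250 CPM in no-Cre uncrushed libraries.

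Of 9 tested genes of glutamate handling other than the transporters among the 10, 2 were higher and 3 lower in uncrushed mice, and 1 was higher and 4 lower in crushed mice; in crushed mice none of the 9 passed without Cre crushed animal 35, and 2 were lower without Cre crushed animal 52 or without no-Cre animal 58. These shares are to be read against the 20.6 and 21.9% of all genes called higher and lower in uncrushed mice and the 21.6 and 21.3% in crushed mice, as for the lists that follow. With library size alone as the scale 2 of the 9 were higher and 1 lower in uncrushed mice, and the median went from -0.28 to 0.36. Glul, the glutamine synthetase of astrocytes, was lower in uncrushed (-1.19 ± 0.26, adjusted p = 0.00405) and crushed mice (-0.90 ± 0.26, adjusted p = 0.0158). Glud1, a mitochondrial enzyme that many cell types use, did not pass in uncrushed mice (0.05 ± 0.27), nor did the glutamine transporter Slc38a1 (-0.28 ± 0.24).

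Among 7 other connexins tested of 8, 4 were lower in uncrushed and 5 in crushed mice, where 1 (Gjd2) was higher; the 5 became 2 without Cre crushed animal 35 and 3 without either no-Cre crushed animal. Gjc3 and Gjb1, connexins of myelinating cells, were lower in uncrushed mice, at -2.90 ± 0.43 and -3.39 ± 0.66 on the log2 scale. Of 6 genes of the endfoot complex that anchors Aqp4, 3 were lower in each comparison and 0 higher. These were Kcnj10, the potassium channel beside Aqp4 (-3.28 ± 0.27 in uncrushed mice), and the dystrophin complex genes Dmd (-1.24 ± 0.26) and Dtna (-0.67 ± 0.25, adjusted p = 0.0473). Utrn was at -0.40 ± 0.25 and did not pass. Without both libraries of contradictory genotype 1 of the 6 passed in uncrushed mice, and without Cre crushed animal 35 1 passed in crushed mice. With library size alone 1 passed in uncrushed mice, where the median went from -0.66 to -0.04.

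Of 24 reactive astrocyte genes tested of 31, 3 were higher and 8 lower in uncrushed mice, and 5 were higher and 6 lower in crushed mice. In uncrushed mice 3 were lower without both libraries of contradictory genotype, 4 without Cre uncrushed animal 10 and 5 without animal 3. In crushed mice 2 were lower without Cre crushed animal 35 or without no-Cre animal 58, and 3 without animal 52 or 51. In crushed mice these shares were close to those over all genes, 21.6% higher and 21.3% lower. Serpina3n, a secreted protease inhibitor, was at 163 and 236 CPM with Cre and 74.9 and 36.3 CPM without in uncrushed mice (1.86 ± 0.56, adjusted p = 0.021). S100a10, an annexin partner, was higher by 3.53 ± 0.35 (adjusted p = 6.91e-05), and Fkbp5, a glucocorticoid-responsive gene, by 2.47 ± 0.30 (adjusted p = 0.000154). Vim was lower, as given above. Lcn2 (2.28 ± 0.46, adjusted p = 0.00267) and Timp1 (2.90 ± 0.84, adjusted p = 0.0177) were among the 5 higher in crushed mice. Both were named after their values were seen. Many genes of this list are also made by cells other than astrocytes.

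Transcription factors of glia and their precursors were mostly lower, 8 of 11 tested of 12 in each comparison, with 1 higher in uncrushed mice. Zbtb20 (-2.70 ± 0.28) and Nfix (-2.46 ± 0.23) were lower in uncrushed mice, Nfib did not pass (0.02 ± 0.23), and Nfia was higher (1.04 ± 0.22, adjusted p = 0.00393). Nfia did not pass without both libraries of contradictory genotype. In the serine and glycine list 2 of 14 tested of 15 were higher and 7 lower in uncrushed mice, and 2 were higher and 6 lower in crushed mice. The 7 became 3 without Cre uncrushed animal 3 or no-Cre uncrushed animal 6 and 4 without Cre uncrushed animal 10 or either Cre crushed animal, and the 6 became 3 without Cre crushed animal 52 or without no-Cre animal 58. With library size alone 4 were lower in uncrushed mice and the median of the list went from -0.39 to 0.29. Slc6a5, the glycine transporter of inhibitory neurons, was lower in uncrushed mice (-2.13 ± 0.28, adjusted p = 0.00028), as were the serine synthesis gene Psat1 (-0.66 ± 0.23, adjusted p = 0.0376) and Slc3a2 (-0.65 ± 0.23, adjusted p = 0.0381), while Gcsh, of the glycine cleavage system, was higher (1.21 ± 0.26, adjusted p = 0.00391).

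Of 7 tested of the 12 genes of the renin-angiotensin list, 5 were called higher with Cre and 0 lower in each comparison, against 20.6% of genes higher in uncrushed and 21.6% in crushed mice; without both libraries of contradictory genotype, or without Cre uncrushed animal 3 alone, 3 were higher in uncrushed mice, and without animal 35, 52 or 58 3 were higher in crushed mice. Atp6ap2, the prorenin receptor and a proton pump partner, was at 162 and 133 CPM with Cre and at 49.5 and 47.5 CPM without in uncrushed mice (1.60 ± 0.26, adjusted p = 0.000834). Lnpep, an aminopeptidase, was higher by 0.99 ± 0.21 (adjusted p = 0.00352) and Ace, the converting enzyme, by 1.29 ± 0.42 (adjusted p = 0.0287). Agtrap did not pass in uncrushed mice (0.40 ± 0.32). Mas1, a receptor for an angiotensin fragment, was at 0 and 0.29 CPM with Cre and at 4.29 and 0 CPM without in uncrushed mice and did not pass. Ren1, the gene of renin itself, and the receptor genes Agtr1a and Agtr1b were among those that did not pass the filter on low counts. The receptor gene Agtr2, named after its values were seen, passed the filter. It was at 11.1 and 10.6 CPM with Cre and at 0.39 and 1.07 CPM without in uncrushed mice. In crushed mice it was at 10.8 and 9.02 CPM with Cre and at 2.04 and 1.67 CPM without.

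Around Aldoc, 12 of 18 tested genes of glycolysis and lactate were higher and 1 lower in uncrushed mice, and 15 were higher and 2 lower in crushed mice. Gapdh (1.46 ± 0.28), Pkm (1.74 ± 0.25), the neuronal enolase Eno2 (1.74 ± 0.27) and Ldhb (1.50 ± 0.27) were higher in uncrushed mice. The 1 lower gene was Slc2a1, the glucose transporter of vessel walls and glia (-1.43 ± 0.27, adjusted p = 0.00177). Of 9 other intermediate filaments 4 were higher and 2 lower in uncrushed mice and 6 higher and 3 lower in crushed mice, with Nefh (2.33 ± 0.37) and Prph (3.01 ± 0.44) among the higher. The 3 became 1 without either Cre crushed animal and 0 without no-Cre crushed animal 58.

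Markers of the other cells that a cord precipitate can hold were mostly lower too. In uncrushed mice all 10 oligodendrocyte markers (median -3.21), all 3 markers of their precursors (-3.57), all 10 microglia markers (-3.43), 6 of 7 endothelial and pericyte markers (-2.83), 4 of 6 meningeal fibroblast markers (-2.32), 2 of 3 Schwann cell markers (-3.25) and 4 of 5 interneuron markers (-1.28) were lower, and 0 of 2 tested ependymal markers passed. In crushed mice the same lists had 10, 3, 9, 7, 4, 2, 3 and 0 lower. Without Cre crushed animal 35 the microglia count was 5 and the endothelial and pericyte count 4 in crushed mice; without Cre uncrushed animal 10 the microglia count was 6 in uncrushed mice; and without Cre uncrushed animal 10, animal 3 or no-Cre uncrushed animal 6 the interneuron count was 2 there. With library size alone the interneuron count was 1 in uncrushed mice, with a median of -0.62. Cholinergic motor neuron markers were higher, 6 of 7 in each comparison. The astrocyte genes are thus among many non-neuronal mRNAs that were lower with Cre, and no test set them apart from the others.

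Crush with Cre asked whether astrocyte mRNA in the precipitates differed between crushed and uncrushed mice that carry the tag. None of the 10 genes passed, where 0.0723% of genes (11 of 15208) were called in either direction. At an unadjusted p of 0.05 or less, 6 of 10 were higher (Gfap, Aqp4, Slc1a2, Slc1a3, Gja1 and Slc7a10) and 0 lower, against 5.75% of genes higher and 3.6% lower. The libraries of crushed mice lay above those of uncrushed mice without overlap for 7 genes, these 6 and Agt, against 26.1% of genes. Gjb6, Aldoc and Sox9 overlapped. Gja1 had the largest log2 fold change (1.29 ± 0.42, adjusted p = 0.350), then Slc7a10 (1.22 ± 0.51, adjusted p = 0.492), Aqp4 (1.19 ± 0.31, adjusted p = 0.228) and Slc1a2 (1.09 ± 0.33, adjusted p = 0.320). Slc1a3, Agt and Gfap were at 0.82 ± 0.32, 0.79 ± 0.37 and 0.78 ± 0.29, Sox9 and Gjb6 at 0.39 ± 0.36 and 0.25 ± 0.34, and Aldoc at 0.00 ± 0.22. The median was 0.80 over the 10 and 0.03 over all genes.

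Up to 3 of the genes passed under other settings. Aqp4, Slc1a2 and Gja1 passed when no filter on low counts was used (adjusted p = 0.00532, 0.0132 and 0.0228), and Aqp4 and Slc1a2 passed by DESeq2 (0.0306 and 0.0356) and when only the 2 Cre groups were fitted (0.0449 and 0.0480). Without both libraries of contradictory genotype 0 passed and the median was 0.64. At this depth and with 2 animals a group, the test recovered 71.9% of genes with a simulated 4-fold change and 1.28% of those with a 2-fold change, so it had little power at the size of these differences.

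No marker of another cell type passed in this comparison. At an unadjusted p of 0.05 or less, 7 of 10 oligodendrocyte markers (median 0.87), 2 of 3 markers of their precursors (1.21), 4 of 7 endothelial and pericyte markers (0.85), 1 of 10 microglia markers (0.91) and 9 of the 22 wider astrocyte markers (0.69) were higher, against 5.75% of all genes. So were 1 of 5 interneuron markers (median 0.28), 0 of 6 meningeal fibroblast markers (0.10), 0 of 3 Schwann cell markers (0.45), 0 of 2 tested ependymal markers (0.18) and 0 of 7 motor neuron markers (-0.24). Summed oligodendrocyte markers were at 1154 and 1898 CPM in Cre crushed and at 917 and 741 CPM in Cre uncrushed libraries; summed microglia markers were at 31.5 and 35.2 CPM against 27.6 and 23.5 CPM, with Tmem119 at 0 in Cre uncrushed animal 10. Of the microglia, oligodendrocyte, precursor, endothelial and pericyte markers no other was at 0 in a Cre library. In the Cre libraries Slc1a2 alone made up 69.2 to 74.0% of the summed CPM of the 9 astrocyte genes other than Aldoc. Set against the summed oligodendrocyte markers, these 9 genes came to 0.308 and 0.267 in Cre crushed and 0.238 and 0.271 in Cre uncrushed libraries, which overlapped. Set against the microglia markers they came to 11.3 and 14.4 after crush and 7.91 and 8.56 without, and against the endothelial and pericyte markers to 7.37 and 9.59 after crush and 4.67 and 6.45 without, neither of which overlapped. Over the summed wider astrocyte markers the 9 genes came to 0.295 and 0.411 after crush and 0.181 and 0.197 without, which did not overlap either. The part of other cell types in the result was not tested.

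Crush without Cre showed what the same surgery went with in the untagged precipitates. None of the 10 genes passed, where 0.0149% of 13394 genes (2, both lower) were called, and none had an unadjusted p of 0.05 or less, against 3.87% of genes higher and 3.77% lower. For 7 genes the crushed libraries lay above the uncrushed ones without overlap, against 19.5% of genes. Aldoc lay below, against 19.8% of genes. Slc1a2 and Slc7a10 overlapped. The largest value was that of Aqp4, at 0.74 ± 0.36 (adjusted p = 0.667). Gja1 and Gjb6 were both at 0.62 (± 0.33 and ± 0.37), Slc1a2 and Slc1a3 both at 0.60 (± 0.38 and ± 0.34), Sox9 at 0.43 ± 0.35, Agt at 0.31 ± 0.35 and Gfap at 0.16 ± 0.29. Slc7a10 and Aldoc were negative, at -0.42 ± 0.48 and -0.52 ± 0.30. The median was 0.52 over the 10 and -0.01 over all genes, and 0.30 over the 10 without no-Cre uncrushed animal 4, whose genotype entry contradicts its title. Wider astrocyte markers had a median of -0.03, oligodendrocyte markers -0.16 and microglia markers 0.40 here. With library size alone as the scale the median of all genes moved by 0.94, and the values of Aldoc and Slc7a10 became positive (0.40 and 0.60).

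**Figure D5:**
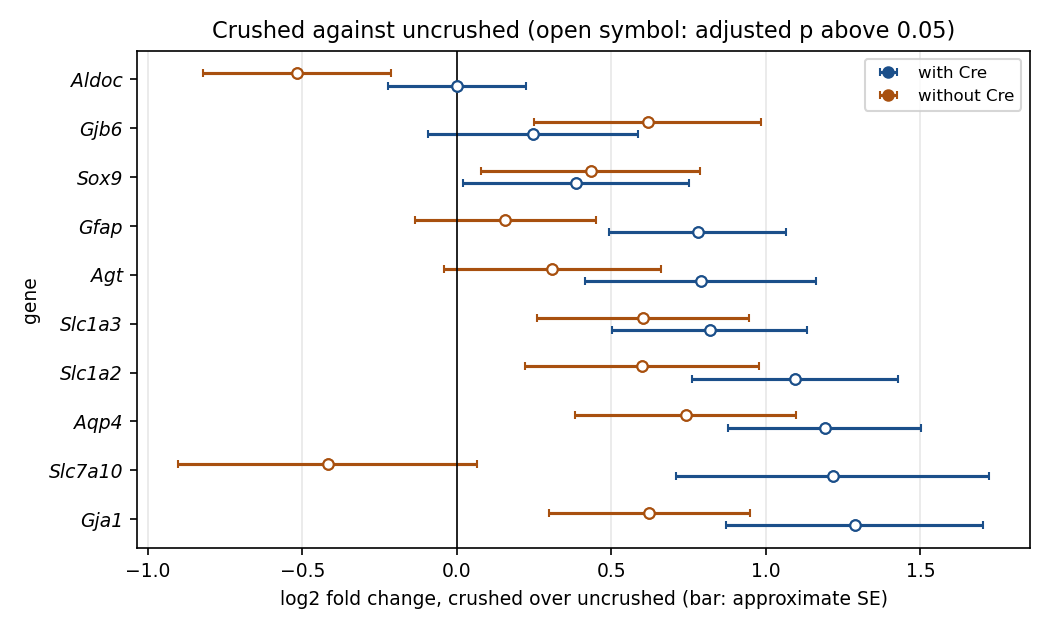
Log2 fold change of crushed over uncrushed for each astrocyte gene, blue with Cre and brown without, with approximate standard errors; all symbols are open because none passed. With Cre the values run from 0.00 (Aldoc) to 1.29 (Gja1), and without Cre from -0.52 (Aldoc) to 0.74 (Aqp4).

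The difference between these crush effects was tested itself, in the fit of all 8 libraries. None of the 10 genes passed, where 0% of the 15208 genes were called; at an unadjusted p of 0.05 or less edgeR gave 537 genes higher (3.53%) and 368 lower (2.42%), and DESeq2 called 15. Slc7a10 had the largest difference, 1.66 ± 0.68 (adjusted p = 0.830), and was the only one of the 10 with an unadjusted p below 0.05, at 0.0327 by edgeR. Its no-Cre uncrushed libraries, at 25.7 and 10.1 CPM, were the least alike of any of its groups. The difference was positive for 8 genes and negative for Gjb6 (-0.34 ± 0.47) and Sox9 (-0.02 ± 0.53), with a median of 0.52 beside 0.07 over all genes. No gene of any other list passed in either crush comparison or in their difference.

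The genes whose pattern over the 8 libraries was most like the mean of the 10 were found by the distance between centred log2 CPM profiles. The nearest outside the 10 was Fgfr2 (distance 0.397), a fibroblast growth factor receptor, at 8.47 to 16.8 CPM in the Cre libraries and 53.0 to 78.3 CPM in the no-Cre libraries. Next were Mlc1 (0.454), a membrane protein from the wider astrocyte list, ENSMUSG00000097225 (0.454), for which no symbol was given, Rassf2 (0.468) and Stxbp3 (0.494). Each of the 10 is itself part of that mean, so its rank is not an independent measure. Among the 10, Slc1a3 was the nearest of all genes, Gfap ranked 7, and Aldoc, at rank 4165, was the farthest. Between pairs of the 10 genes Pearson's r of log2 CPM over the 8 libraries ran from 0.733 (Aqp4 and Aldoc) to 0.996 (Aqp4 and Slc1a2). The points share library, depth and the gap between Cre and no-Cre.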

How the data were processed

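Expected counts per gene (estimated reads, not scaled) and TPM were deposited by the authors in 1 table per library, made with RSEM 1.2.12 and Bowtie2 2.2.0 per the submitters' processing notes; the sources used here give no genome build, annotation or strand setting. Symbols were assigned to 37607 of 38924 Ensembl identifiers (96.6%). The members and companion lists were chosen with earlier results of these data known. Counts were rounded and analysed with edgeR 4.0.16 in R 4.3.3: filterByExpr (minimum count 10, minimum total 15) kept 15208 genes, TMM scaling, quasi-likelihood fit of 1 mean per group to all 8 libraries (4 residual degrees of freedom), two-sided tests and Benjamini-Hochberg adjustment at 0.05 within each of 5 comparisons. Crush without Cre was fitted on the 4 no-Cre libraries (13394 genes, 2 residual degrees of freedom), whose biological coefficient of variation was 0.322 against 0.202 with Cre. On simulated data with 200 changed genes that fit made 5 false calls among 115 (13419 genes), a fit of all groups 21 among 140 (15190 genes), and the fit for crush with Cre 1 among 106 (15234 genes). The fit for Cre against no-Cre in uncrushed mice made 9 false calls among 133 (15285 genes) and recovered 6.67% of simulated 2-fold changes. Approximate standard errors are the log2 fold change over the square root of F. Floors of 3 counts cover counting error only. Named were the 10 genes, up to 4 tested genes of highest mean CPM per list, 4 check genes (Rpl22, Chat, Slc5a7, Prph) and 5 genes of most similar profile (log2 CPM with a prior count of 2); other names were added after their values were seen, and some genes under the rule are not reported here. Alternatives were DESeq2 1.42.0, other scalings, no filter, fewer groups, and leaving out libraries.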

Additional observations from a re-analysis of the deposited data

How the results depend on the processing

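No paired analysis was possible because the 4 groups had no animal number in common. Every one of the 10 genes kept a negative log2 fold change of Cre over no-Cre under every alternative fit to counts. This held in uncrushed and in crushed mice. In uncrushed mice 9 or 10 genes passed, and 10 passed whichever single library was left out. In crushed mice 9 or 10 passed, and 8 or 9 with a single library left out. For crush with Cre the count of genes passing was 1 with mitochondrial ribosomal RNA left out of the totals (Aqp4), 3 without the filter on low counts, 2 by DESeq2 and 2 with only the compared groups in the fit; it was 0 under the others, each library left out included. For crush without Cre and for the difference it was 0 throughout. Of the companion lists, in uncrushed mice without both libraries of contradictory genotype, 1 gene was higher and 3 lower for glutamate, 3 lower for other connexins, 7 lower for glial transcription factors, 1 higher and 5 lower for serine and glycine, 7 higher and 1 lower for glycolysis, 4 higher and 1 lower for other filaments, 7 lower for microglia, 3 lower for interneurons, 6 lower for endothelium, 10 lower for oligodendrocytes, 3 lower for their precursors, 4 lower for fibroblasts, 2 lower for Schwann cells and 6 higher for motor neurons. Some small crush values changed sign. With Cre, leaving out 1 library gave -0.0097 to 0.58 for Gjb6, -0.024 to 0.031 for Aldoc and -0.081 to 1.02 for Sox9, and Sox9 was -0.081 without both libraries of contradictory genotype. Without Cre, Aldoc was 0.40 by library size alone and 0.10 with the totals free of mitochondrial ribosomal RNA; Slc7a10 was 0.60, 0.22 and, without both contradictory libraries, 0.38, and -0.97 to 0.38 with 1 library left out. The difference of crush effects by library size alone was -0.0063 for Aqp4, -0.0058 for Slc1a2, -0.29 for Slc1a3 and -0.022 for Agt; it was 0.31 for Gjb6 without both contradictory libraries, 0.0015 and 0.00054 for Sox9 with DESeq2's size factors and test, and with 1 library left out -0.13 to 0.91 for Aqp4 and -0.49 to 0.62 for Sox9. Library size alone moved the median of all genes by 0.68 (Cre over no-Cre, uncrushed), 0.44 (crush with Cre), 0.94 (crush without Cre) and -0.53 (difference), and totals free of mitochondrial ribosomal RNA by -0.26 (Cre over no-Cre, crushed), 0.43, 0.62 and -0.22 in turn; the median of the 10 genes less that of all genes stayed at -3.06 and -3.00 in uncrushed mice. The share of calls that were higher was 48.5% in uncrushed mice and 76.5% by library size alone, and 50.4% in crushed mice and 38.8% with the totals free of mitochondrial ribosomal RNA. Genes called over the whole table were 6468 in uncrushed mice (3299 without both contradictory libraries, 3802 without Cre uncrushed animal 3), 6521 in crushed mice (2733 without Cre crushed animal 35, 4041 without no-Cre crushed animal 51, 4250 without Cre crushed animal 52), 11 for crush with Cre (5 without both contradictory libraries, 281 without the filter), 2 for crush without Cre (121 without the filter, 31 to 128 with 1 library left out) and 0 for the difference (87 without the filter). Causes of these changes were not tested. Depth limits Slc7a10 and Agt most, with 9 to 22 counts in Cre uncrushed libraries. Gja1 (41 and 20 counts), Slc1a3 (31 and 32), Gjb6 (29 and 58) and Sox9 (57 and 35) came next there.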

Other observations

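Before any scaling, the 10 astrocyte genes took 0.0420 and 0.0459% of all counts with Cre and 0.101 and 0.211% without in uncrushed mice, and 0.0807 and 0.0984% with Cre and 0.526 and 0.265% without in crushed mice. The lowest no-Cre library, uncrushed animal 4, was also the one with the most mitochondrial ribosomal RNA, at 48.2% of its counts.

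In the list of reactive astrocyte genes, Cd44, a hyaluronan receptor, and Cp, the copper-carrying oxidase ceruloplasmin, were singled out after their values were seen. The largest crush value with Cre in that list was that of Timp1, at 3.32 ± 0.85, which did not pass (adjusted p = 0.215). Timp1 was at 0.52 and 0.29 CPM in Cre uncrushed and 3.73 and 4.51 CPM in Cre crushed libraries. Cd44 was at 2.21 and 5.26 CPM in Cre uncrushed and 22.2 and 15.1 CPM in Cre crushed libraries, and at 14.4 and 11.0 CPM and 15.1 and 16.0 CPM in the no-Cre libraries of uncrushed and crushed mice. Crushed over uncrushed with Cre was 2.29 ± 0.41 on the log2 scale and did not pass (adjusted p = 0.0915). Cp was at 0.52 and 0.876 CPM in Cre uncrushed and 3.04 and 3.01 CPM in Cre crushed libraries, with 2.06 ± 0.42 (adjusted p = 0.136). The Cre uncrushed values were near the floor, where 3 counts corresponded to 0.39 and 0.29 CPM. Without Cre, Cp was at 16.4 and 17.9 CPM in uncrushed and 21.6 and 20.7 CPM in crushed mice. In uncrushed mice Cd44 stood lower in the Cre precipitates (-1.72 ± 0.43, adjusted p = 0.00871), and in crushed mice it did not pass (0.27 ± 0.38, adjusted p = 0.592).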
